A study of Mus musculus with 18 samples.

Results

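The genes described here encode the chains of the collagens. They are the 44 of 25731 gene symbols in the mouse heart count table that are written as Col, a type number, a and a chain number (Col1a1, Col4a3 and so on). The hearts came from 18 adult wild-type C57BL/6 mice, all labelled male though 3 libraries go against that label, and form 3 groups of 6, each sampled at day 7, with 1 RNA-seq library per animal. The IR+Decursin group had ischemia-reperfusion and received decursin, a coumarin compound of Angelica gigas root. The IR group had ischemia-reperfusion without decursin, and the SHAM group had a sham operation. Neither how much decursin was given, nor by which route, nor how the surgery was done, is stated in the labels. In the labels' 3 batches, each batch is exactly 1 group, so a batch difference and a group difference cannot be told apart. The 6 libraries of a group are separate animals.

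Collagens are proteins in which chains wind around one another into a triple helix, and each collagen type is built from its own chain or set of chains. Fibrillar collagens form the load-bearing fibrils of the heart's interstitium and, after the loss of heart muscle, of the scar. Basement membrane collagens form sheets around muscle cells and vessels, and the remaining classes coat fibrils, link them to cells or form microfilaments and networks. In the heart, fibroblasts make most of the fibrillar collagen. The 44 genes were sorted into 8 classes by the type they encode: 11 fibrillar, 8 basement membrane, 6 beaded filament (type VI), 9 fibril-associated (FACIT), 3 short-chain network, 1 anchoring fibril, 4 transmembrane and 2 other.

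Col1a2 and Col3a1 are 2 of the 3 collagen chain genes highest in FPKM, a length-scaled level, in IR hearts, and Col4a1 and Col4a2 start head to head. Promoters of Col1a2, Col3a1, Col4a1 and Col4a2 are shown as examples. Each is a window of 250 bases before to 50 after the start of the gene, from RefSeq on build GRCm38.p6, which is not the GRCm39 build of the counts. Capitals in Col1a2 mark the letters of the CCAAT box (CCAAT) and the GC box (GGGCGG). Those in Col3a1 mark the letters of the TATA box (TATAAA) and the core of the Smad element (CAGAC). Each was searched on both strands (no motif contains another). The TATAAA of Col3a1 lies at -117 from the start, and whether it works as a TATA box was not tested. Col1a2 also holds a CAGAC, at -175, which is left in small letters. Capitals in Col4a1 and Col4a2 mark the 78 bases that the 2 windows share on opposite strands.
Col1a2 (chr6:4505368-4505667, plus strand): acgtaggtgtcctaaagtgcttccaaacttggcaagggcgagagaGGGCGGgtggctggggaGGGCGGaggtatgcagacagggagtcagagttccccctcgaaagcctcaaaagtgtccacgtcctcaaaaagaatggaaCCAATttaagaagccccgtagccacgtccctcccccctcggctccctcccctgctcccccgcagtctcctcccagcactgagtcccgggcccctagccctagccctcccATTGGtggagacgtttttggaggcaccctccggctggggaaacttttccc
Col3a1 (chr1:45311288-45311587, plus strand): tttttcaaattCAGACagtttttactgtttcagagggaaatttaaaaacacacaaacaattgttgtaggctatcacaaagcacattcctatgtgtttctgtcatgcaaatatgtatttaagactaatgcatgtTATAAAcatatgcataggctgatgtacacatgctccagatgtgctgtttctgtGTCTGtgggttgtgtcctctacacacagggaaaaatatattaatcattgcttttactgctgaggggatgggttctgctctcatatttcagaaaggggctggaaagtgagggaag
Col4a1 (chr8:11312777-11313076, minus strand): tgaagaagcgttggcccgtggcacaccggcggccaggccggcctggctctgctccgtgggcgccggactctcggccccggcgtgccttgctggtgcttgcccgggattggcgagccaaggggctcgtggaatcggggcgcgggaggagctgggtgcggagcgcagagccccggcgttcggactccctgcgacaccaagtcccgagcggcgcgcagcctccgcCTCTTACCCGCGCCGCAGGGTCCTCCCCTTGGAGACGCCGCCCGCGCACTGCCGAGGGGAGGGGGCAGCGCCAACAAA
Col4a2 (chr8:11312555-11312854, plus strand): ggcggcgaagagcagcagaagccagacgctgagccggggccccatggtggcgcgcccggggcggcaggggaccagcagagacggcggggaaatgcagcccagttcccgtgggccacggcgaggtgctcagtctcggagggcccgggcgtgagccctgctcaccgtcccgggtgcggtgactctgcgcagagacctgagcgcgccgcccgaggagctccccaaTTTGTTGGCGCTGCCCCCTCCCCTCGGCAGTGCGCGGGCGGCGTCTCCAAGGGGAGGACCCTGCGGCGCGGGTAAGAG
Windows were found for 35 of the 44 genes, 38 in all. The GC box was in 60.5% of the collagen windows and in 35.7% of all 32851 windows of the same length, and the CCAAT box in 34.2% of collagen windows and 37.4% of all windows. The TATA box was in 13.2% of collagen windows and 13.6% of all, and the Smad core in 52.6% of collagen windows and 49.6% of all. These matches describe letters in the windows and were not tied to any value below. Col4a3 with Col4a4, and Col4a5 with Col4a6, also lie head to head.

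Libraries held 27.5 to 35 M counts, and heart muscle markers were abundant in each of them, at 31407.1 to 65880.0 CPM (counts scaled to a library of 1 M) in sum over 8 genes. Some libraries stood apart. IR+Decursin 5 and IR+Decursin 6 lay nearer to SHAM than the other 4 libraries of their group, at -12.3 and -33.5 on the first principal component, against 7.62 to 38.6 in those 4, 17.3 to 46.7 in IR and -42.7 to -35.9 in SHAM. IR+Decursin 6 also had 7.54% of its counts on the gene model Gm26917. IR+Decursin 2, IR 3 and IR 4 had over 1000 counts of Xist, the RNA that coats the silent X chromosome in female cells, and 0 counts of the Y-linked Ddx3y, which goes against the label male. For members whose values are given in a comparison, calls that changed without the Xist libraries are named beside the results. Without IR+Decursin 5 and 6, only fold changes are given.

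The collagen chain genes took 0.842 ± 0.522% of all counts in IR+Decursin, 1.14 ± 0.218% in IR and 0.148 ± 0.0224% in SHAM (mean ± SD, n = 6 each). All 6 IR libraries, at 0.882% to 1.51%, lay above all 6 SHAM libraries, at 0.112% to 0.170%. IR+Decursin 1 to 4 had 0.738% to 1.45%, while IR+Decursin 5 had 0.339% and IR+Decursin 6 had 0.147%, inside the SHAM range. On the deposited FPKM scale, which divides by gene length, the summed level was 1450.0 ± 904.4 in IR+Decursin, 1964.1 ± 371.3 in IR and 245.6 ± 36.5 in SHAM.

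The make-up of this RNA differed as well. Fibrillar chains made up 68.7 ± 20.1% of the summed FPKM in IR+Decursin, 81.4 ± 3.33% in IR and 37.2 ± 1.5% in SHAM. Basement membrane chains made up 19.2 ± 14.1% in IR+Decursin, 10.5 ± 1.82% in IR and 44.0 ± 2.68% in SHAM, and beaded filament chains 8.85 ± 5.02% in IR+Decursin, 5.49 ± 0.701% in IR and 13.8 ± 0.993% in SHAM. The IR and SHAM libraries did not overlap in any of these 3 shares. Between IR+Decursin and IR, the share of each class overlapped. By mean FPKM, Col3a1 (710.6), Col1a1 (405.0) and Col1a2 (364.8) led in IR, and Col4a1 (93.9) followed. In IR+Decursin the order of these 4 was the same, at 504.0, 287.2, 265.4 and 81.4 FPKM. In SHAM, Col4a1 (48.5) and Col4a2 (37.8) came before Col3a1 (33.9) and Col1a2 (28).

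**Figure D1:**
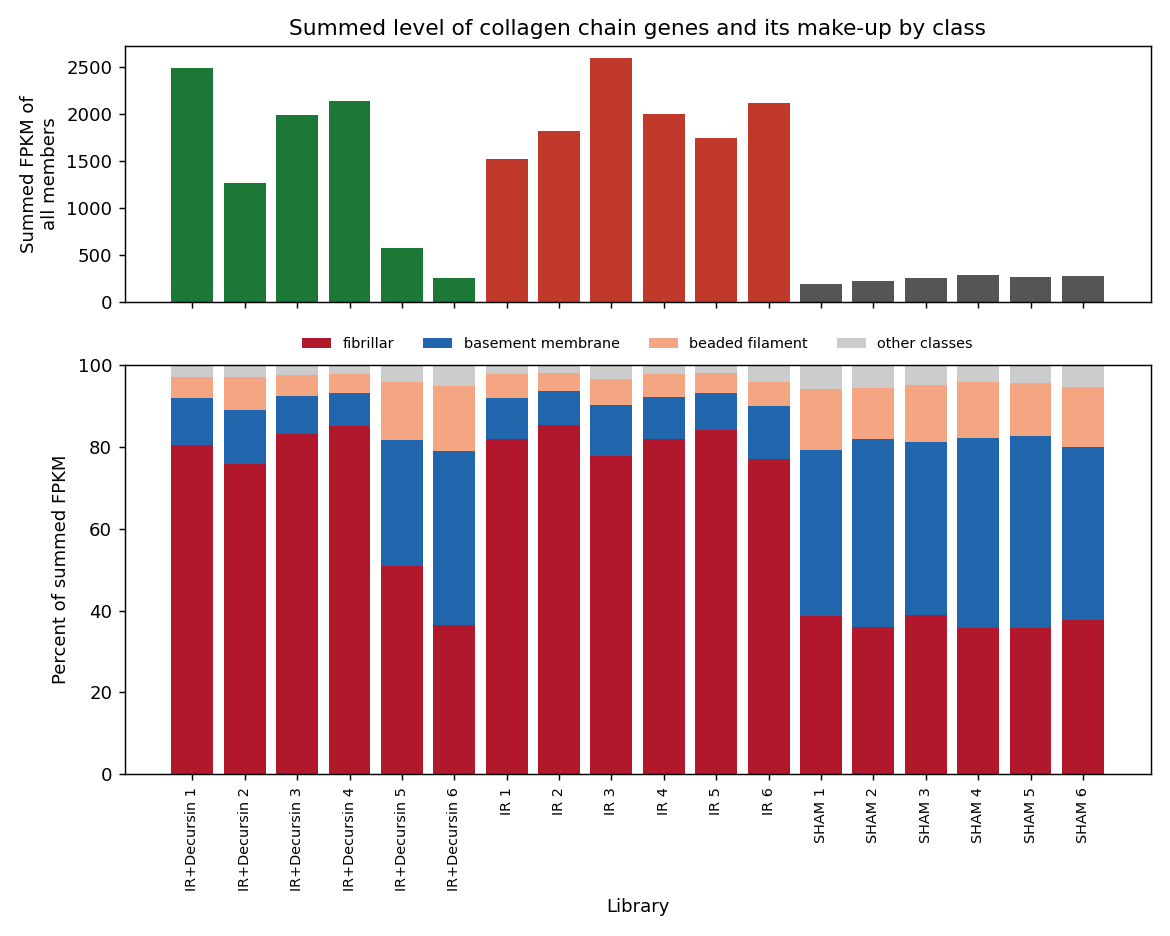
Upper bars give the summed FPKM of all collagen chain genes in each of the 18 libraries, in the order IR+Decursin, IR and SHAM, and lower bars the percent of that sum from each class. IR+Decursin 6 looks like the SHAM libraries in height and make-up, and IR+Decursin 5 lies between SHAM and IR.

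The comparison of IR with SHAM asks how collagen RNA stood at day 7 with ischemia-reperfusion alone. In IR hearts the fibrillar genes of collagen types I, III and V rose, with Col1a1 at 2186.5 ± 309.2 CPM, against 110.2 ± 16.1 CPM in SHAM (SD, n = 6 each). All tested genes of type VI and the fibril-associated Col12a1, Col14a1 and Col16a1 also rose. Of the type IV genes, Col4a1 and Col4a2 rose by less than 1 on the log2 scale and Col4a3 and Col4a4 fell. Of the 44 genes, 36 had enough counts to be tested with edgeR's quasi-likelihood test, with p-values adjusted over all 15088 genes tested (Benjamini-Hochberg, called below 0.05). Of these 36, 25 rose, beside 25.3% of all genes, and 3 fell, beside 21.7% of all genes, and 8 were not called (46.9% of all genes were called in either direction). The median log2 fold change was 1.27 over the 36 and -0.00 over all genes. At least 2-fold higher were 20 members (11.5% of all genes), and at least 4-fold higher were 14 (5.1%). Every IR library lay above every SHAM library for 18 members (15.4% of all genes) and below for 2 (11.6%). With total-count scaling, which moved the median of all genes to 0.31, 7012 genes rose and 1056 fell in place of 3810 and 3269, and 28 members rose and 3 fell. Without the 3 libraries with Xist counts, 21 members rose and 3 fell, beside 3186 and 2583 of all genes. The members lost were Col4a1, Col4a2, Col6a6 (0.61, adjusted p = 0.0665) and Col28a1 (0.76, adjusted p = 0.0821). In bulk tissue, fewer cells of a type and less RNA per cell cannot be told apart.

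Of the 10 fibrillar genes tested, 9 rose and 1 fell, with a median log2 fold change of 2.97. Values below are the lowest, median and highest CPM of the 6 libraries of a group, then the log2 fold change of IR over SHAM ± SE. Col1a1, which encodes the main chain of type I collagen, had 117.7, 1892.9 and 2770.5 CPM in IR+Decursin, 1965.2, 2076.7 and 2800.5 CPM in IR and 80.4, 113.5 and 128.2 CPM in SHAM. Its fold change was 4.31 ± 0.59, adjusted p = 3.11e-05, and the highest SHAM library lay far below the lowest IR library. Col1a2, the partner chain of type I, had 175.9, 1498.4 and 2183.3 CPM in IR+Decursin, 1490.0, 1592.7 and 2212.5 CPM in IR and 146.7, 159.9 and 198.6 CPM in SHAM, a change of 3.39 ± 0.47, adjusted p = 3.12e-05. Col3a1, the chain of the finer type III fibrils, had 217.4, 2980.4 and 4420.2 CPM in IR+Decursin, 3082.1, 3536.4 and 4252.6 CPM in IR and 170.4, 208.9 and 261.6 CPM in SHAM, a change of 4.08 ± 0.53, adjusted p = 1.91e-05. For each of these 3 genes no IR library overlapped SHAM, and IR+Decursin 6 alone of its group lay inside the SHAM range.

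Among 8 activated fibroblast markers measured alongside, IR hearts had 4 higher and 1 lower (Comp, also in the cartilage list below), with sums of 312.3 to 2198.9 CPM in IR+Decursin, 607.3 to 2920.9 in IR and 301.1 to 434.0 in SHAM. Of 8 resident fibroblast markers 6 rose and 1 fell, with sums of 2130.7 to 2617.5 CPM in IR+Decursin, 1909.8 to 2516.7 in IR and 2058.6 to 2644.6 in SHAM. Dcn and Lum of that list are also among the proteoglycans below. Of 8 heart muscle markers 7 fell, and of 8 macrophage markers all rose. Of 7 epicardium markers 6 rose, with sums of 8.61 to 34.4 CPM in IR+Decursin, 10.9 to 43.6 in IR and 5.95 to 8.76 in SHAM. Of 7 smooth muscle and pericyte markers 5 fell, with sums of 1099.6 to 1441.9 CPM in IR+Decursin, 752.4 to 1217.4 in IR and 1239.2 to 1373.7 in SHAM. Of 7 endothelial markers 1 rose and 2 fell. Their sums overlapped, at 873.4 to 1058.0 CPM in IR+Decursin, 743.7 to 1067.1 in IR and 865.7 to 981.0 in SHAM. The part of these cells in the collagen values was not tested.

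Type V collagen, which starts fibrils and sets their width, had the same direction. Col5a1 had 49.4, 298.4 and 487.5 CPM in IR+Decursin, 276.7, 315.8 and 486.5 CPM in IR and 37.6, 48.6 and 56.2 CPM in SHAM, a change of 2.93 ± 0.42, adjusted p = 4.05e-05. Col5a2 had 44.3, 245.3 and 422.4 CPM in IR+Decursin, 227.5, 261.8 and 486.7 CPM in IR and 34.4, 40 and 50 CPM in SHAM, a change of 3.0 ± 0.44, adjusted p = 4.75e-05. Col5a3, a chain of a less common form of type V, had 11.6, 36.9 and 53.6 CPM in IR+Decursin, 34.4, 38.8 and 67.2 CPM in IR and 6.79, 10.5 and 14 CPM in SHAM, a change of 2.03 ± 0.29, adjusted p = 3.71e-05. In these 3 genes too, IR and SHAM did not overlap. Col27a1, a fibrillar chain known from cartilage, was low in level and had 3.89, 9.49 and 12 CPM in IR+Decursin, 8.52, 11.8 and 15.7 CPM in IR and 3.32, 3.72 and 4.82 CPM in SHAM, with a change of 1.63 ± 0.21, adjusted p = 1.07e-05. This was the smallest adjusted p of all members in the fit of 3 groups, where IR+Decursin libraries also enter the estimate of spread. With only IR and SHAM in the fit, the smallest was that of Col1a1 (adjusted p = 1.64e-12, edgeR).

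Col24a1, Col11a1 and Col11a2 fell outside the rule for per-library values, which asks for a mean of 5 CPM in a group, and were chosen after their values were seen. Col24a1, a fibrillar chain of developing bone and cornea, had 0 to 264 counts per library in IR+Decursin, 42 to 141 in IR and 0 to 3 in SHAM. Its fitted change of 5.59 ± 1.07, adjusted p = 0.000423 was the highest among the members, though its size depends on how counts near 0 are handled. Col11a1, of the cartilage collagen type XI, rose by 2.49 ± 0.73, adjusted p = 0.00928, with libraries that overlapped. Its partner Col11a2 was the only fibrillar gene that fell, with 1.05, 2.18 and 2.54 CPM in IR+Decursin, 0.822, 1.32 and 2.25 CPM in IR and 1.48, 3.23 and 3.92 CPM in SHAM and a change of -1.17 ± 0.29, adjusted p = 0.00215. Markers of cartilage and heart valve, where type XI collagen is known, moved in both directions. Of that list, 2 genes rose and 4 fell of 7 tested, with a sum of 23.1 to 77.4 CPM in IR+Decursin, 16.7 to 37.9 in IR and 27.4 to 78.3 in SHAM, and their part in these results was not tested.

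**Figure D2:**
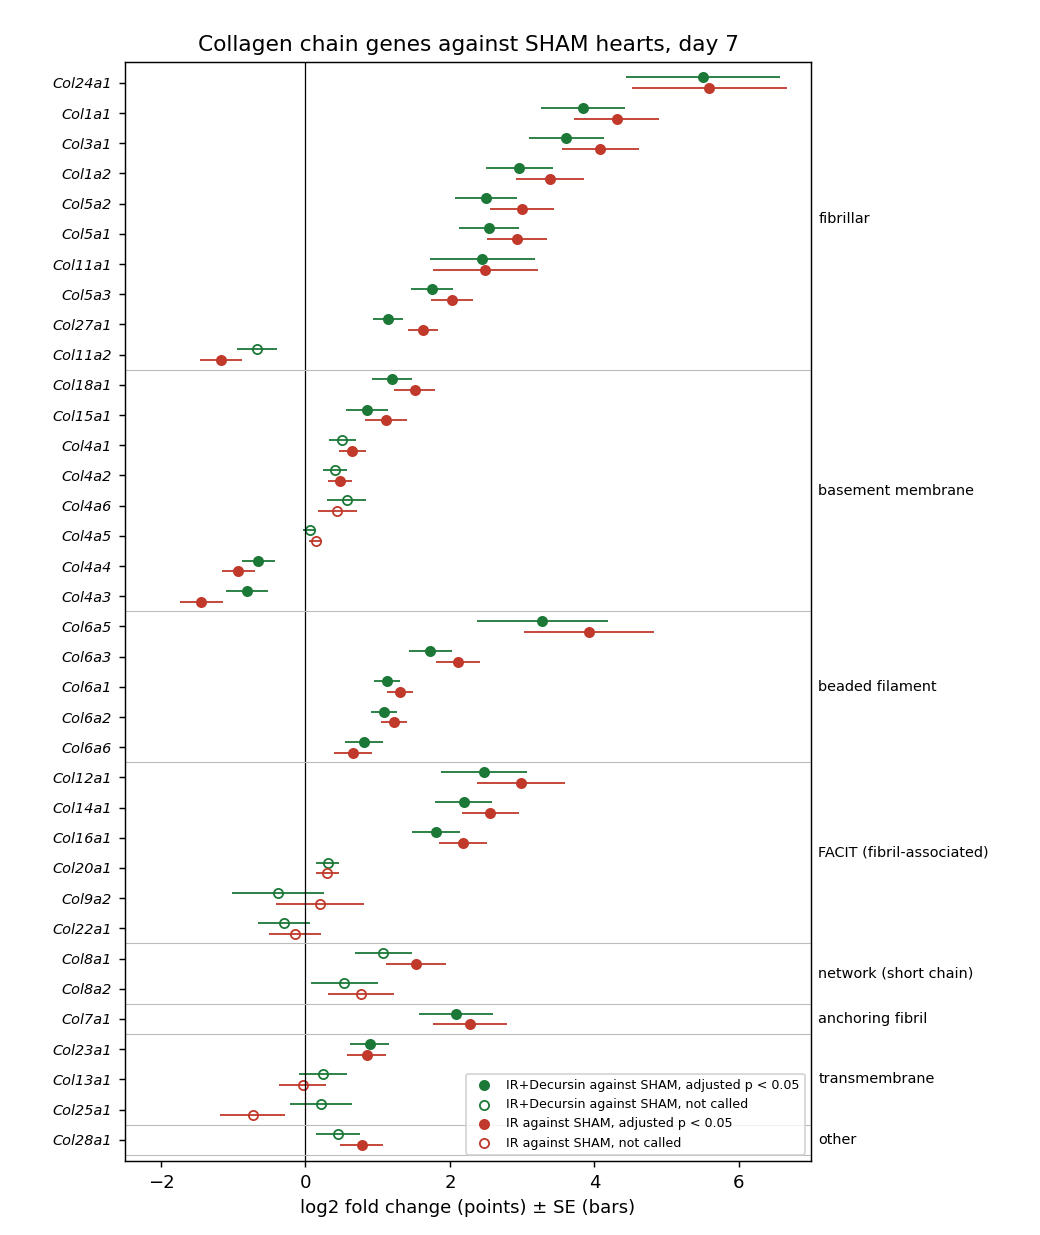
Points give the log2 fold change of each tested collagen chain gene in IR+Decursin hearts (green) and IR hearts (red), each over the same SHAM hearts, and bars the SE. Filled points were called at an adjusted p below 0.05. Most fibrillar genes lie between 1 and 6, and most type IV genes lie within 1 of 0 or below it.

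The 8 basement membrane genes split, with 4 up, 2 down, 2 not called and a median log2 fold change of 0.46. Col4a1, a chain of the type IV network found in nearly all basement membranes, had 354.7, 488.9 and 764.1 CPM in IR+Decursin, 396.7, 491.2 and 833.6 CPM in IR and 253.2, 360.0 and 420.0 CPM in SHAM, a change of 0.65 ± 0.19, adjusted p = 0.00968. Col4a2, its partner chain, had 288.0, 343.8 and 514.4 CPM in IR+Decursin, 277.1, 340.1 and 560.4 CPM in IR and 199.9, 279.5 and 326.5 CPM in SHAM, a change of 0.48 ± 0.17, adjusted p = 0.0236. In both genes IR and SHAM overlapped. Neither was called without the libraries with Xist counts (Col4a1 0.49, adjusted p = 0.0629, and Col4a2 0.35, adjusted p = 0.111, edgeR). Col4a2 was also lost without SHAM 1 (0.38), IR 3 (0.34) or IR 6 (0.42). Exons of Col4a1 and Col4a2 overlap each other in the reference annotation. The labels do not say whether the counting used strand, so how reads of the shared stretch were counted is not known.

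Col4a3 and Col4a4, chains of the type IV network known from the kidney filter, fell. Col4a4 had 4.68, 6.68 and 9.65 CPM in IR+Decursin, 2.44, 5.8 and 7.91 CPM in IR and 8.27, 10.1 and 13.8 CPM in SHAM, a change of -0.93 ± 0.23, adjusted p = 0.00249. Col4a3, given after its values were seen, had 1.84, 2.3 and 4.9 CPM in IR+Decursin, 0.822, 2.06 and 2.59 CPM in IR and 2.81, 5.22 and 6.91 CPM in SHAM, a change of -1.44 ± 0.30, adjusted p = 0.000557. These were the 2 members for which every IR library lay below every SHAM library. Col4a5, the partner of both, had 26.6, 34.9 and 42.5 CPM in IR+Decursin, 32.1, 36.1 and 42 CPM in IR and 31.6, 32.7 and 36.1 CPM in SHAM and was not called (0.14 ± 0.09, adjusted p = 0.217), and Col4a6 was not called at 0.44 ± 0.27, adjusted p = 0.199. With total-count scaling both Col4a5 (0.45) and Col4a6 (0.76) were called higher.

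Both collagens of the outer basement membrane zone rose. Col15a1, whose product ties basement membranes to the fibrils around them, had 102.7, 143.1 and 228.8 CPM in IR+Decursin, 94.2, 133.0 and 331.4 CPM in IR and 62.3, 86.5 and 101.8 CPM in SHAM, a change of 1.11 ± 0.29, adjusted p = 0.00434, with overlapping libraries. Col18a1, whose C-terminal fragment is endostatin, had 14.4, 36.3 and 44.8 CPM in IR+Decursin, 28.8, 32.1 and 67.1 CPM in IR and 11, 13.9 and 16.7 CPM in SHAM, a change of 1.51 ± 0.28, adjusted p = 0.000337, and its IR and SHAM libraries did not overlap.

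All 5 tested genes of type VI collagen, which forms beaded microfilaments between cells and fibrils, rose, with a median of 1.31. Col6a1 had 100.2, 192.4 and 239.1 CPM in IR+Decursin, 151.1, 187.3 and 293.5 CPM in IR and 64.7, 82.1 and 98.6 CPM in SHAM, a change of 1.31 ± 0.18, adjusted p = 2.3e-05. Col6a2 had 100.7, 175.9 and 212.0 CPM in IR+Decursin, 135.5, 170.0 and 273.6 CPM in IR and 64.5, 78.4 and 98.6 CPM in SHAM, a change of 1.23 ± 0.18, adjusted p = 2.66e-05. Col6a3, the longest chain of the common form, had 46.1, 137.0 and 215.8 CPM in IR+Decursin, 115.3, 151.2 and 279.6 CPM in IR and 28.4, 42.8 and 52.3 CPM in SHAM, a change of 2.11 ± 0.30, adjusted p = 4.05e-05. None of these 3 overlapped between IR and SHAM. Col6a6, a chain that can take the place of Col6a3, had 4.96, 6.67 and 13.3 CPM in IR+Decursin, 4.17, 6.91 and 8.18 CPM in IR and 2.04, 4.32 and 5.99 CPM in SHAM, a change of 0.66 ± 0.26, adjusted p = 0.0429, and its libraries overlapped. Its call was lost when any of SHAM 2 to 5, IR 1 to 5 or IR+Decursin 6 was left out, with changes of 0.52 to 0.67. Col6a5, another such chain, had 12 to 112 counts per IR library, against 1 to 4 in SHAM, and rose by 3.92 ± 0.90, adjusted p = 0.0016.

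Fibril-associated collagens divided by level. Col12a1, which coats fibrils in tissue under load, had 4.54, 26 and 67.6 CPM in IR+Decursin, 20.7, 28.4 and 73.1 CPM in IR and 2.84, 5.3 and 6.64 CPM in SHAM, a change of 2.98 ± 0.61, adjusted p = 0.000864. Col14a1, a relative of type XII on mature fibrils, had 21.6, 106.2 and 118.7 CPM in IR+Decursin, 74.9, 92.3 and 190.4 CPM in IR and 13.4, 19.5 and 21.6 CPM in SHAM, a change of 2.56 ± 0.39, adjusted p = 7.65e-05. Col16a1, which sits on thin fibrils near cells, had 9.96, 35.8 and 47.1 CPM in IR+Decursin, 30.6, 37.7 and 60.9 CPM in IR and 7.01, 8.3 and 13.6 CPM in SHAM, a change of 2.18 ± 0.33, adjusted p = 5.79e-05. All 3 were higher in every IR library than in any SHAM library. Of the same class Col20a1 (0.30 ± 0.16, adjusted p = 0.119), Col9a2 (0.20 ± 0.61, adjusted p = 0.812) and Col22a1 (-0.14 ± 0.36, adjusted p = 0.773) were not called. Their mean levels were at most 3.61 CPM in any group, and the direction of Col22a1 turned with total-count scaling (0.16).

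Among the other classes, Col8a1, a short-chain collagen laid down under vessel endothelium, had 41.5, 74.5 and 161.6 CPM in IR+Decursin, 49.2, 72 and 246.2 CPM in IR and 27.6, 40.2 and 43.9 CPM in SHAM, a change of 1.53 ± 0.41, adjusted p = 0.00571. Its IR libraries all lay above SHAM. The partner chain Col8a2 was not called (0.77 ± 0.46, adjusted p = 0.176). Col7a1, the chain of the fibrils that anchor epithelia, was at most 3.43 CPM in any library and rose by 2.28 ± 0.51, adjusted p = 0.00107. Of the transmembrane collagens Col23a1 rose (0.85 ± 0.27, adjusted p = 0.0147, though not called without IR 5 at 0.65), and Col13a1 (-0.04 ± 0.33, adjusted p = 0.931, or 0.27 with total-count scaling) and Col25a1 (-0.73 ± 0.45, adjusted p = 0.186) were not called. Col28a1, known from nerve, rose by 0.78 ± 0.30, adjusted p = 0.0365, but the call was lost without any one of SHAM 1 to 5, IR 2, IR 3 or IR 6, at 0.65 to 0.78. The 8 members that were not tested (Col2a1, Col6a4, Col9a1, Col9a3, Col10a1, Col17a1, Col19a1 and Col26a1) had at most 63 counts in sum over the 6 libraries of any group.

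**Figure D3:**
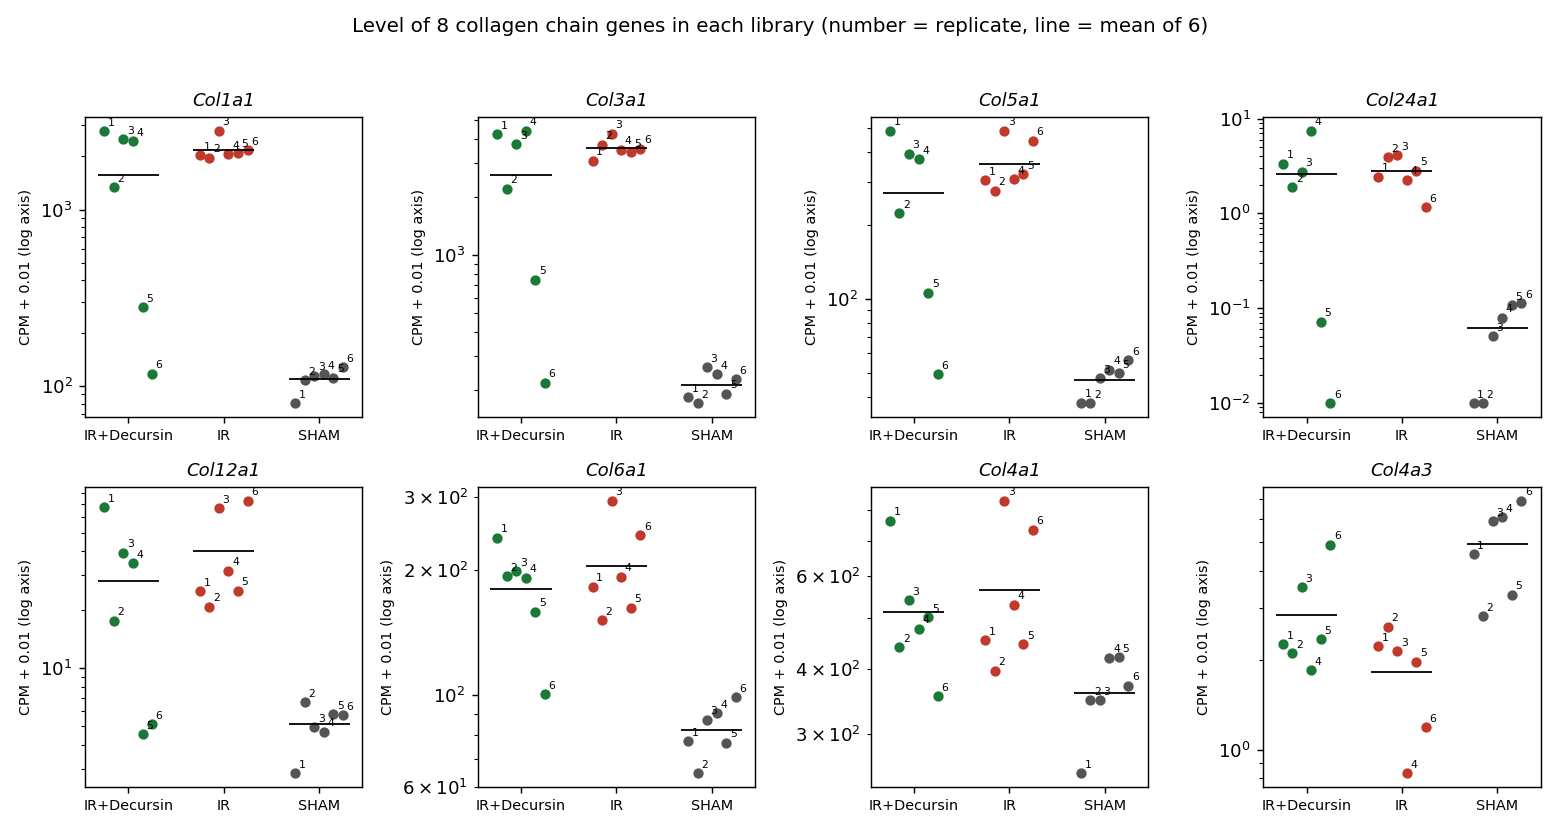
Dots give the level of 8 collagen chain genes in each library as CPM + 0.01 on a log axis, with the replicate number beside each dot and a line at the mean of 6. IR+Decursin 5 and 6 lie low for the fibrillar genes Col1a1, Col3a1, Col5a1 and Col24a1, while for Col4a1 IR+Decursin 5 lies inside the IR range.

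The comparison of IR+Decursin with IR asks whether the drug changed these levels. Col1a1 averaged 1574.9 ± 1173.7 CPM in IR+Decursin and 2186.5 ± 309.2 CPM in IR, and Col3a1 averaged 2596.9 ± 1822.2 CPM in IR+Decursin and 3593.1 ± 388.0 CPM in IR (SD, n = 6 each). The spread within IR+Decursin was larger than the difference of the means in both genes. None of the 36 members was called by edgeR, and 0 of 15088 genes were (0%). At an unadjusted p below 0.05 there were 3 members (Col27a1, Col4a3 and Col25a1) and 2712 genes, and DESeq2 called 0 members and 470 genes. Without IR+Decursin 1, edgeR called 981 genes and 0 members. The median log2 fold change was -0.21 over the members, with 27 of 36 below 0, and -0.02 over all genes. The share below 0 was not counted over all genes. Members are measured in the same libraries, so their signs are not separate observations. Of the fibrillar genes 9 of 10 were below 0, among them Col1a1 (-0.47 ± 0.52, adjusted p = 0.654), Col3a1 (-0.47 ± 0.47, adjusted p = 0.621) and Col27a1 (-0.49 ± 0.20, adjusted p = 0.228, the smallest adjusted p of the members). Col11a2 of that class was at 0.50 ± 0.29, adjusted p = 0.357. The number below 0 was 5 of 8 for basement membrane, 4 of 5 for beaded filament, 5 of 6 for fibril-associated and 0 of 3 for transmembrane genes. Col4a3 (0.63 ± 0.30, adjusted p = 0.27) and Col25a1 (0.94 ± 0.44, adjusted p = 0.264) lay above 0. A p above the threshold does not show that the groups are alike, and the SE of Col1a1 and Col3a1 was as large as their change.

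Libraries of the IR+Decursin group fell far apart. The coefficient of variation of Col1a1 was 74.5% in IR+Decursin, 14.1% in IR and 14.6% in SHAM. For Col1a1 the libraries IR+Decursin 1 to 6 had 2770.5, 1341.9, 2495.8, 2443.8, 279.7 and 117.7 CPM, against 1965.2 to 2800.5 CPM in IR. IR+Decursin 1, 3 and 4 lay inside the IR range, IR+Decursin 2 below it, and 5 and 6 far below it. Of the 20 members for which IR and SHAM libraries did not overlap, the number at or past the nearest IR library was 19 in IR+Decursin 1, 12 in IR+Decursin 2, 19 in IR+Decursin 3 and 20 in IR+Decursin 4. In IR+Decursin 5 it was 6, with 9 between the groups and 5 at SHAM level, and in IR+Decursin 6 it was 0, with 3 between and 17 at SHAM level. The 3 between (Col6a1, Col6a2 and Col14a1) lay only just above the highest SHAM library. The same positions were not counted over all genes. IR+Decursin 5 and 6 also lay nearer to SHAM on the first principal component, so these numbers do not set the members apart from other genes.

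IR+Decursin 5 stood at different places for different genes. It lay between the groups for Col1a1, Col1a2, Col3a1, Col5a1, Col5a2 and Col5a3, but inside the IR range for Col6a1 (158.6 CPM), Col6a2 and Col6a3, and for Col4a1 (501.2 CPM) and Col4a2 (378.3 CPM). Its Col6a5, Col7a1, Col12a1, Col18a1 and Col24a1 were at SHAM level, so that genes of the type VI and basement membrane classes were found in both places. IR+Decursin 5 and 6 also had the lowest sums of activated fibroblast and macrophage markers in their group. Summed over 8 markers of activated fibroblasts, IR+Decursin 5 and 6 had 550.0 and 312.3 CPM, against 979.6 to 2198.9 in the other 4 libraries of the group, 607.3 to 2920.9 in IR and 301.1 to 434.0 in SHAM. Summed over 8 macrophage markers they had 529.0 and 317.0 CPM, against 530.6 to 893.1 in the other 4, 670.0 to 1215.8 in IR and 226.0 to 315.3 in SHAM. The 8 heart muscle markers summed to 49993.2 and 58027.1 CPM in them. These markers summed to 36363.0 to 56458.8 CPM in the other 4 (highest in IR+Decursin 2), 31407.1 to 42218.0 in IR and 55513.2 to 65880.0 in SHAM. No marker of these 3 lists was at 0 in all libraries of a group, and their part in the result was not tested.

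Leaving out IR+Decursin 5 and 6, chosen after seeing the data, gave a median of 0.02 for IR+Decursin over IR, with Col1a1 at 0.05, Col3a1 at 0.02 and Col27a1 at -0.22. These are differences with no test, since the libraries were removed for their values.

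**Figure D4:**
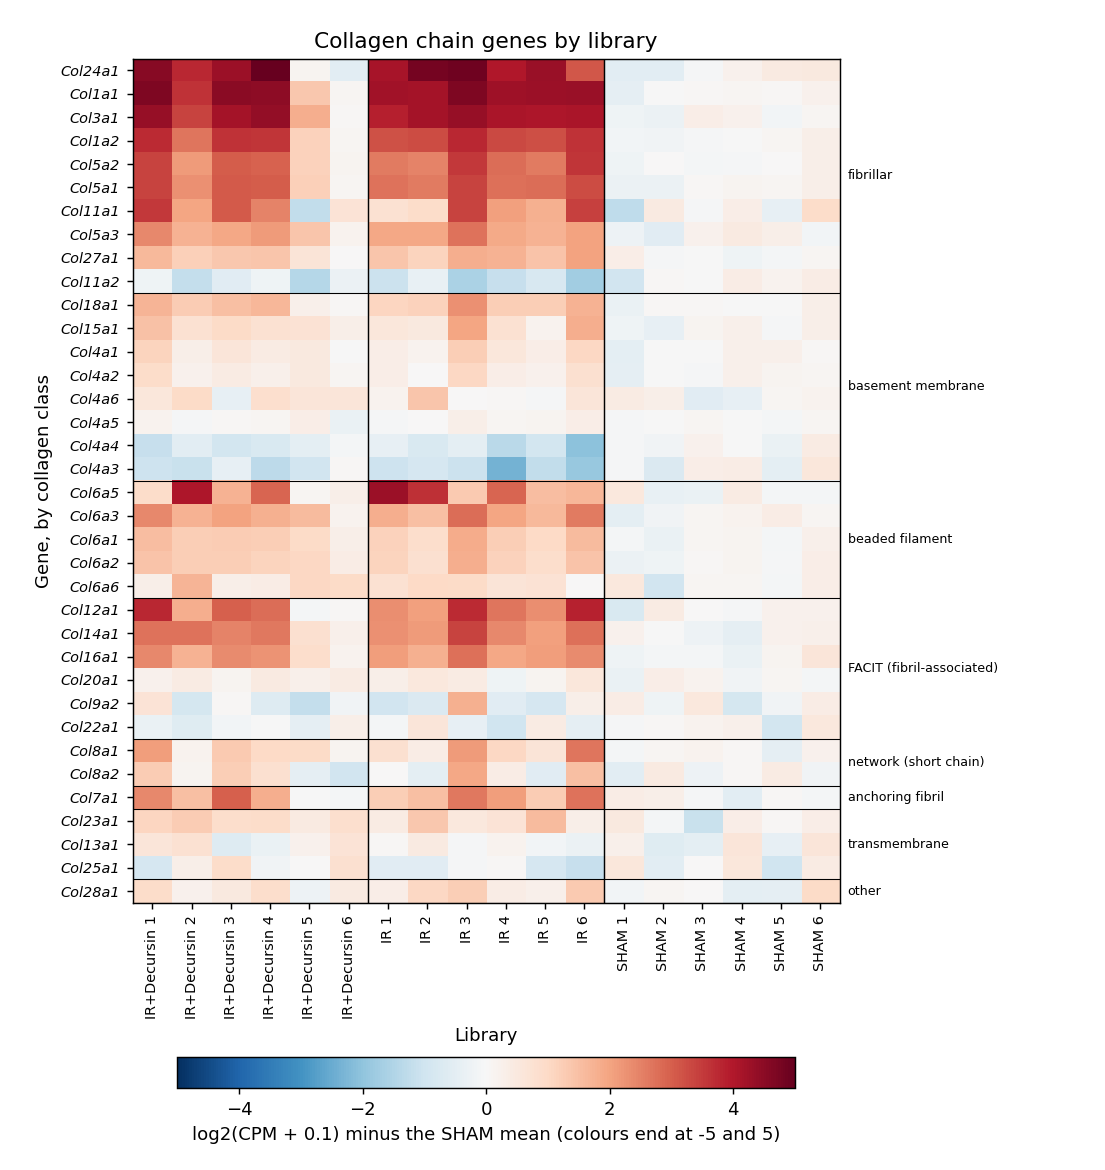
Colours give log2(CPM + 0.1) of each tested collagen chain gene in each library, minus the mean of the 6 SHAM libraries, for genes grouped by class and libraries in the order IR+Decursin, IR and SHAM. The red block of fibrillar genes covers IR and IR+Decursin 1 to 4, is pale in IR+Decursin 5 and is absent in IR+Decursin 6.

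IR+Decursin hearts set against SHAM hearts had 21 of 36 members higher, beside 17.5% of all genes, and 2 lower, beside 11.8%, with a median of 1.09 (29.3% of all genes were called in either direction). Fibrillar genes again led, with 9 of 10 higher, among them Col1a1 (3.84 ± 0.58, adjusted p = 0.000447) and Col3a1 (3.61 ± 0.52, adjusted p = 0.000357). All 23 called members were also called in IR over SHAM, a comparison that shares the SHAM libraries. Called in IR over SHAM alone were Col4a1 (0.51 ± 0.19, adjusted p = 0.0546 in IR+Decursin), Col4a2 (0.41 ± 0.17, adjusted p = 0.0771), Col8a1 (1.08 ± 0.40, adjusted p = 0.0547), Col11a2 (-0.67 ± 0.28, adjusted p = 0.0783) and Col28a1 (0.45 ± 0.30, adjusted p = 0.274), and the test of IR+Decursin over IR called none of these 5. Every IR+Decursin library lay above every SHAM library for 4 members, Col6a1, Col6a2, Col14a1 and Col15a1 (4.44% of all genes), and below for none (2.9%). In all 4 the gap was narrow, between IR+Decursin 6 and SHAM 6. It was 100.2 against 98.6 CPM for Col6a1 and 100.7 against 98.6 for Col6a2. For Col14a1 it was 21.6 against 21.6 after rounding, and for Col15a1 102.7 against 101.8. Gaps this small depend on how the libraries are scaled (TMM factors 0.831 in IR+Decursin 6 and 0.88 in SHAM 6). With total-count scaling, 4781 genes rose and 377 fell in place of 2647 and 1774, and 26 members rose and 0 fell, so that Col4a3 (-0.81 ± 0.29, adjusted p = 0.0424) and Col4a4 (-0.65 ± 0.23, adjusted p = 0.0378) were no longer called. Some calls changed with 1 library left out. Col15a1 (0.85 ± 0.29, adjusted p = 0.0349) was lost without any one of SHAM 1, 2, 3 or 5 or IR+Decursin 1, 3 or 4 (0.70 to 0.87), Col4a4 without any one of SHAM 3, 4 or 6 or IR+Decursin 1 to 4 (-0.67 to -0.56), and Col6a6 without IR+Decursin 2 (0.56). Col4a3 was lost without any one of SHAM 1, 3, 4 or 6 or IR+Decursin 1, 2, 4 or 5 (-0.85 to -0.69). The missing calls of Col4a1, Col4a2 and Col8a1 also lay close to the threshold. Col4a1 was called without any one of IR 2, 3 or 6 (0.51 each) or IR+Decursin 6 (0.57), Col4a2 without IR 3 (0.41), and Col8a1 without any one of IR 2 or 6 (1.08 each) or IR+Decursin 2 (1.21) or 6 (1.19). DESeq2 called Col4a1 (0.51, adjusted p = 0.0279) and Col8a1 (1.08, adjusted p = 0.0287). Col11a2 was called without SHAM 1 (-0.84). Without the libraries with Xist counts, Col4a1 (0.55), Col4a2 (0.45) and Col8a1 (1.21) were called, and Col4a3 (-0.74), Col4a4 (-0.67) and Col6a6 (0.56) were not.

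Some collagens are assembled from chains in a set proportion, so the ratio of 2 chains within a library was followed as well, for 10 pairs. A ratio of counts does not depend on how libraries are scaled, though the count added to each chain weighs more where counts are few. With an exact permutation test, two-sided and over all splits of 6 against 6 (smallest possible p 0.00216), adjusted over the 10 pairs, 6 pairs differed between IR and SHAM. Ratios are given as the geometric mean of the ratio of counts. Col1a1 to Col1a2 was 1.27 in IR and 0.665 in SHAM (log2 difference 0.93, exact permutation, adjusted p = 0.00541), with ranges of 1.09 to 1.38 in IR and 0.542 to 0.737 in SHAM. Col6a3 to Col6a1 was 0.846 in IR and 0.495 in SHAM (0.77, exact permutation, adjusted p = 0.00541). Both ratios were higher in every IR library than in any SHAM library.

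Chains of one type also moved apart in the other direction. Col5a3 to Col5a1 was 0.120 in IR and 0.221 in SHAM (-0.88, exact permutation, adjusted p = 0.00541), and Col4a3 to Col4a1 was 0.00314 in IR and 0.0132 in SHAM (-2.07, exact permutation, adjusted p = 0.00541). Neither overlapped between groups. Shifts with overlap between the groups were found for Col4a1 to Col4a2, at 1.46 in IR and 1.31 in SHAM (0.16, exact permutation, adjusted p = 0.00866), and for Col8a1 to Col8a2, at 29.1 in IR and 16.7 in SHAM (0.80, exact permutation, adjusted p = 0.0216). The ratios Col3a1 to Col1a1 (-0.22), Col5a1 to Col5a2 (-0.02), Col11a1 to Col5a1 (-0.64) and Col6a1 to Col6a2 (0.08) did not pass. Col6a1 to Col6a2 passed without SHAM 1 (0.12, exact permutation, adjusted p = 0.00541). Col3a1 to Col1a1 passed without SHAM 2 (-0.28, exact permutation, adjusted p = 0.0371). With 5 in place of 0.5 counts added, Col11a1 to Col5a1 passed (-1.05, exact permutation, adjusted p = 0.0433). Col11a1 had only 3 to 26 counts per SHAM library, against 26 to 202 in IR. Adding 5 counts therefore raises the SHAM ratios more, and this pass cannot be read as a firmer difference. Between IR+Decursin and IR no pair passed (smallest adjusted p = 0.429, exact permutation). Between IR+Decursin and SHAM none passed either (smallest adjusted p = 0.0758, exact permutation), and 4 passed without IR+Decursin 6. Col1a1 to Col1a2 was 0.774 in IR+Decursin 5 and 0.669 in IR+Decursin 6, against 1.25 to 1.29 in IR+Decursin 1 to 4.

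**Figure D5:**
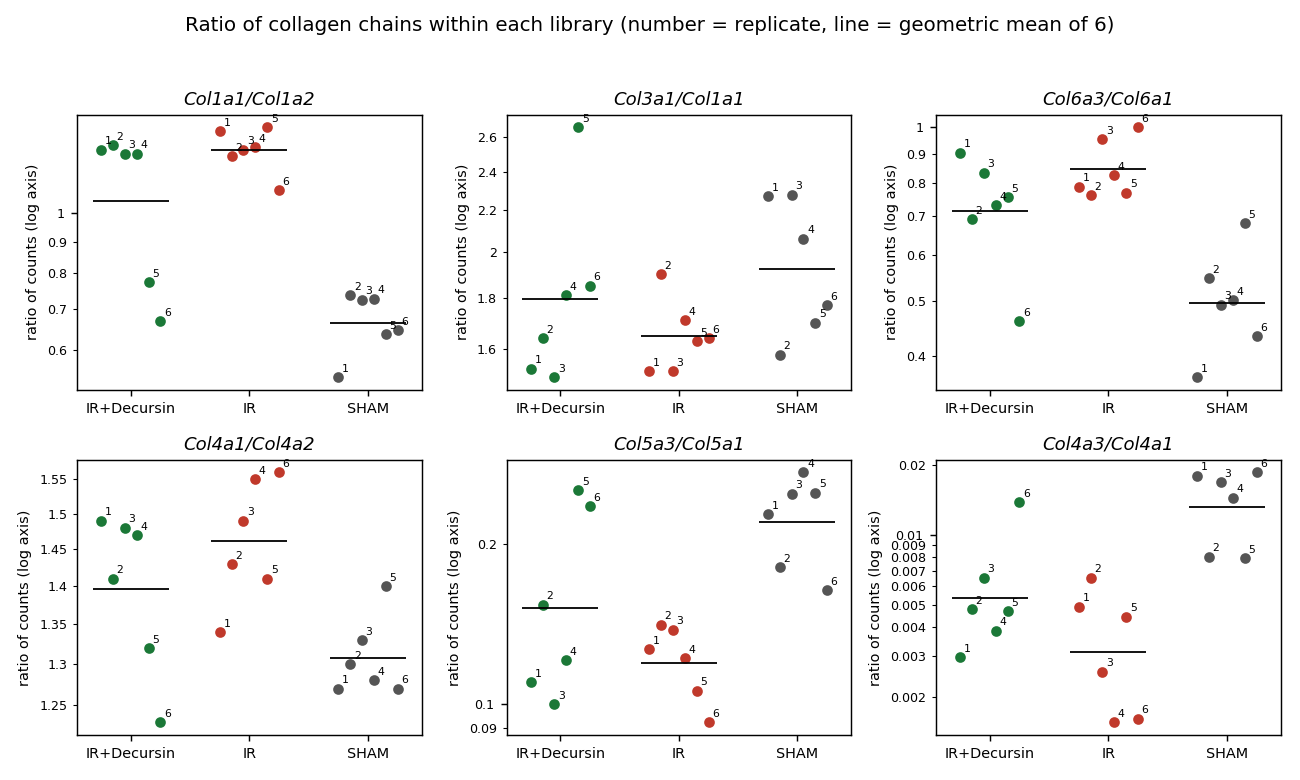
Dots give the ratio of counts of 6 pairs of collagen chains in each library on a log axis, with the replicate number beside each dot and a line at the geometric mean of 6. For Col1a1 to Col1a2, IR lies at 1.09 to 1.38 and SHAM at 0.542 to 0.737, and IR+Decursin 5 and 6 lie apart from the other 4 libraries of their group.

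The genes that make and handle collagen were read from 4 lists, and their counts stand beside 25.3% of all genes higher and 21.7% lower in IR over SHAM. Of 22 genes for folding and export of procollagen, 14 rose and 3 fell in IR over SHAM, with a median of 0.66. By adjusted p the first 4 were Sar1b, a GTPase of the vesicles that leave the endoplasmic reticulum, P4hb, a subunit of prolyl 4-hydroxylase, P3h3, a prolyl 3-hydroxylase family member, and Crtap, which works with prolyl 3-hydroxylase. Sar1b fell (-0.64 ± 0.08, adjusted p = 5.59e-06), and P4hb (0.88 ± 0.11, adjusted p = 6.49e-06), P3h3 (1.13 ± 0.14, adjusted p = 6.49e-06) and Crtap (0.89 ± 0.12, adjusted p = 8.82e-06) rose. Of 8 genes for cleavage of the propeptides, 5 rose and 1 fell, with a median of 1.12. They include Pcolce, an enhancer of C-propeptide cleavage (1.04 ± 0.13, adjusted p = 7.11e-06), Adamts2 (1.79 ± 0.24, adjusted p = 1.73e-05) and Adamts14 (1.88 ± 0.30, adjusted p = 4.97e-05), which remove the N-propeptide, and Bmp1, which removes the C-propeptide (1.41 ± 0.21, adjusted p = 3.82e-05).

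Of 9 genes for collagen receptors and uptake, 6 rose and 0 fell, with a median of 0.31. Mrc2, an uptake receptor for collagen fragments, rose by 1.38 ± 0.19, adjusted p = 2.26e-05, and Lair1, an inhibitory receptor of immune cells, by 1.96 ± 0.35, adjusted p = 0.000216. The integrin chains Itga11 (1.33 ± 0.22, adjusted p = 8.16e-05) and Itga2 (1.89 ± 0.42, adjusted p = 0.000946) rose as well. Of 8 small leucine-rich proteoglycans that regulate fibrils, 4 rose and 2 fell, with a median of 0.36. The genes of biglycan, Bgn (1.26 ± 0.19, adjusted p = 2.86e-05), and lumican, Lum (0.92 ± 0.17, adjusted p = 0.00025), rose. The genes of fibromodulin, Fmod (-1.35 ± 0.28, adjusted p = 0.000803), and of Prelp (-0.51 ± 0.12, adjusted p = 0.00161) fell. In IR+Decursin over IR none of the 4 lists had a called gene, with medians of -0.17, -0.11, -0.17 and -0.07. In IR+Decursin over SHAM, where 17.5% of all genes were higher and 11.8% lower, 13 rose and 1 fell for folding and export, 5 and 0 for cleavage, 6 and 0 for receptors, and 3 and 0 for the proteoglycans.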

How the data were processed

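Total RNA of 18 hearts was sequenced, and the authors deposited raw counts per gene symbol and FPKM values. The submitters' processing notes name fastp, HISAT2, HTSeq and the build GRCm39. They do not state versions or the strand setting, and exons of 13 of the 44 members overlap another gene in the reference annotation. The deposited FPKM equal counts per kilobase and per 1 M counts for the 743 member values above 0 (largest relative deviation 3.24e-14).

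The members and lists were chosen with earlier results of these data known. Counts were tested in edgeR 4.0.16 (R 4.3.3), in 1 quasi-likelihood fit of all 18 libraries with a mean per group, filterByExpr by group, TMM factors and 15 residual degrees of freedom, after a test on simulated data. CPM use TMM-scaled library sizes. Chain ratios used counts + 0.5 and scipy 1.17.1. The 21 members that reached a mean of 5 CPM in any group were given library by library, and 4 genes per pathway list were named by adjusted p. Alternatives were DESeq2 1.42.0, limma 3.58.1, other scalings, filters and pseudocounts, a block for the replicate number, and leaving out libraries. Depth was 27.5 to 35 M counts. Promoter windows come from RefSeq.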

Additional observations from a re-analysis of the deposited data

Results flagged for a closer look

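Among 108 groups of 6 libraries examined, 5 held a library farther from the rest than the 95% limit of Dixon's test, where chance gives about 1 in 20 groups. Col1a1 stood at 2800.5 CPM in IR 3, where the next library had 2175.6. Col5a3 stood at 67.2 CPM in IR 3, where the next had 40.9, and Col9a2 at 1.19 CPM in IR 3, where the next had 0.356. Col4a6 stood at 5.28 CPM in IR 2, where the next had 2.99. Col28a1 stood at 2.13 CPM in SHAM 6, where the next had 1.13. IR 3 is one of the libraries with over 1000 Xist counts, and it was the highest of the IR libraries for 17 of the 36 tested members.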

How the results depend on the processing

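Over all alternatives, the changes of the 36 tested members in IR over SHAM kept direction and side of the threshold in 1073 values, lost the call in 31, gained it in 9 and changed sign in 17. In IR+Decursin over SHAM, for the 24 members whose values the text gives, these were 688, 39, 35 and 1. Col20a1 was called in IR over SHAM without IR 4 (0.39), with total counts (0.60) and with limma on FPKM (0.20 and 0.50). In IR over SHAM, leaving out each library in turn gave 25 to 28 members called, 6587 to 7281 genes, and 6 to 7 chain ratios. In IR+Decursin over SHAM it gave 19 to 25 members, 3472 to 5296 genes and 0 to 4 ratios, the 4 without IR+Decursin 6. In IR+Decursin over IR it gave 0 members, 0 ratios and 0 to 981 genes, with 2 without IR+Decursin 4 and 470 by DESeq2. For the lists it gave 16 to 18 genes of folding and export, 6 of cleavage, 5 to 7 of receptors and 5 to 6 proteoglycans in IR over SHAM, then 12 to 14, 4 to 5, 4 to 6 and 2 to 3 in IR+Decursin over SHAM. Between IR+Decursin and IR it gave 0 to 1 for cleavage, the 1 without IR+Decursin 1, and 0 for the others. DESeq2 called 1 proteoglycan there. Against SHAM, 5 proteoglycans were called in IR+Decursin with total-count scaling, with limma on log2(FPKM + 0.1) and for genes of at least 1 FPKM. By counts in place of FPKM, the SHAM shares were 35.6% fibrillar, 47.0% basement membrane and 12.4% beaded filament. Same-numbered libraries had correlations of -0.52 to 0.406, and not every library correlated best with its own number, so the numbers were not taken to pair libraries. With the replicate block 26, 0 and 21 members were called in IR over SHAM, IR+Decursin over IR and IR+Decursin over SHAM. Over all genes these were 6715, 0 and 3873. Of the ratios in IR over SHAM, 0 passed with the block (smallest adjusted p 0.0625, exact sign-flip permutation). With 6 pairs this test cannot give a p below 0.0312 before adjustment, and the differences themselves were as without the block (Col1a1 to Col1a2 0.93, Col4a3 to Col4a1 -2.07), so this says nothing of their stability.

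Changes of sign were as follows, and the cause was not tested. In IR over SHAM, Col9a2 was -0.37 with voom weights, -0.10 with the replicate block, -0.76 without the Xist libraries and -0.79 to 0.39 when 1 library was left out (lowest without IR 3). Col13a1 was 0.27 with total counts, 0.03 and 0.15 with limma on FPKM, 0.01 with the block, and -0.16 to 0.11 with 1 library left out (above 0 without SHAM 4, SHAM 6 or IR 6). Col22a1 was 0.16 with total counts, 0.01 and 0.04 with limma on FPKM, 0.14 without the Xist libraries and -0.36 to 0.02 with 1 left out (highest without IR 4). Col5a1 to Col5a2 was 0.02 without the Xist libraries and -0.08 to 0.05 with 1 left out (highest without IR 6). For IR+Decursin over IR without IR+Decursin 5 and 6, Col1a1, Col1a2, Col5a1 and Col14a1 were 0.05, Col3a1 and Col6a2 0.02, Col5a3 and Col6a1 0.01, and Col18a1 0.03. Without the Xist libraries Col4a1 and Col4a2 were 0.06 and 0.10. With 1 library left out, Col4a1 was -0.29 to 0.00, Col4a2 -0.20 to 0.06 and Col6a2 -0.21 to 0.02, each highest without IR 3. Col6a6 was -0.05 with voom weights, -0.00 with limma on log2(FPKM + 0.1), -0.05 without the Xist libraries and -0.09 to 0.25 with 1 left out (lowest without IR+Decursin 2), and Col5a1 to Col5a2 was -0.00 without IR 6. For IR+Decursin over SHAM with 1 library left out, Col4a5 was lowest at -0.01 and Col11a1 to Col5a1 was -0.57 to 0.21, both without IR+Decursin 5 at the end past 0. Col5a1 to Col5a2 was -0.02 to 0.09, and Col6a1 to Col6a2 was lowest at -0.00, both without SHAM 2 at the low end. Depth limits the members under 1 CPM, whose calls rest on few counts.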

Other observations

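SHAM 6 was the highest SHAM library for 18 of the 36 tested members and the lowest for 0, while SHAM 1 was the lowest for 13. Within IR+Decursin, library 1 was the highest for 20 members and library 6 the lowest for 21. Library 6 was nevertheless the highest of its group for 3 members.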
